A study of Mus musculus with 4 samples.

Results

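The SUMO conjugation pathway was described here by 8 genes of the 22138 in the table: Sumo2 and Sumo3, which encode SUMO proteins, Sae1 and Uba2, which encode the subunits of the activating enzyme, and the ligase genes Pias1, Pias2, Pias3 and Pias4. They were chosen by name, and each name matched 1 row. All 8 passed the filter on low values. RNA was sequenced from TT2 cells, a female mouse embryonic stem cell line from a cross of C57BL/6 and CBA, grown without feeders in serum with LIF. The cells received control siRNA (2 libraries) or siRNA against Hnrnpk (2 libraries), at 100 nM and again at 50 nM after 24 hours, and were harvested about 72 hours after the second transfection by the treatment protocol; the design text gives 72 hours after transfection without saying which. All 4 libraries come from the same line and differ by label only in the siRNA (its sequence was not given in the sources used here). According to its title, the series asks how hnRNP K takes part in silencing by SETDB1.

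SUMO is a small protein that is joined to lysines of other proteins by a cascade like that of ubiquitin. A heterodimer of SAE1 and UBA2 activates it, and after its transfer to a carrier enzyme, ligases such as the PIAS proteins help to place it on targets. SUMO2 and SUMO3 are so alike after maturation that they are usually treated as 1 form, SUMO2/3. In embryonic stem cells the corepressor KAP1 (gene Trim28) is modified by SUMO, and SETDB1, which methylates lysine 9 of histone H3, binds it through SUMO-interaction motifs. The comparison therefore addresses whether transcripts of these SUMO proteins, activating subunits and PIAS ligases differed after Hnrnpk siRNA. Which ligase modifies KAP1 in these cells was not tested.

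Levels are given in RPKM, which scales mapped reads to transcript length and library size, so that levels of different genes can be set side by side. The SUMO genes need a caution first, because parts of their transcripts are also found in transcripts of other annotated genes. The coding part of Sumo2 (transcript ENSMUST00000153892.1, spliced, gene at chr11:115523102-115536276 of GRCm38, minus strand) is shown with a pair of its processed pseudogenes, Smt3h2-ps4 (chr1:14839869-14840156, minus strand) and Gm13430 (chr2:36389132-36389419, plus strand), and with the first 288 bases of the Sumo3 coding part (chr10:77606097-77618331, plus strand). Capitals mark bases that differ from Sumo2 or have no partner in it; sequences run 5′ to 3′ and come from GENCODE M21 transcripts.
Sumo2: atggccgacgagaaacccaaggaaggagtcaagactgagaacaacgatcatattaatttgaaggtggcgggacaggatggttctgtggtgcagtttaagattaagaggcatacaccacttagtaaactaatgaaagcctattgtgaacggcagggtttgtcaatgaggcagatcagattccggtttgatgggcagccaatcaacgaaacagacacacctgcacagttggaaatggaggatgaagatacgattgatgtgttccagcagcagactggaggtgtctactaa
Smt3h2-ps4: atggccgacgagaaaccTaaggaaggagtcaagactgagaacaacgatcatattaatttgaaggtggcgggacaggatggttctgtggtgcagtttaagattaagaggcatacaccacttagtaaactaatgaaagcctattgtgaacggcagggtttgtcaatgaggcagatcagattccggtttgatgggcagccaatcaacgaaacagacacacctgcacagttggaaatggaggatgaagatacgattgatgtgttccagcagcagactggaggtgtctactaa
Gm13430: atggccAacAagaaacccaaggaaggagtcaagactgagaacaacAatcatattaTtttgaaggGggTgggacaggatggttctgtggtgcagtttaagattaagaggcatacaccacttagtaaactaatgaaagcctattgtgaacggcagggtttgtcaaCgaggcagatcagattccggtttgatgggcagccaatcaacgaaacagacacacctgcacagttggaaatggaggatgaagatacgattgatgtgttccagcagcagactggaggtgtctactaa
Sumo3: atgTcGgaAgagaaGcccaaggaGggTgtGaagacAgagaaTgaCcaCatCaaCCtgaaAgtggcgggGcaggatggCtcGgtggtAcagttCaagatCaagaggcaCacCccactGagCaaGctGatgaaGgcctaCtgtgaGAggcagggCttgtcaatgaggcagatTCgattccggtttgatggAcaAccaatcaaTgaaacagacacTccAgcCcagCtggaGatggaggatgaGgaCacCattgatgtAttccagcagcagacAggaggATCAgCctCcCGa
Over 288 bases, Smt3h2-ps4 differed from Sumo2 at 1 base and Gm13430 at 7. Sumo2 and Sumo3 were identical at 233 of 285 aligned bases of their whole coding parts (81.8%), the Sumo3 coding part being the longer at 333 bases.

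Sumo2 had 14 annotated copies of at least 100 bases at 90% identity or more, 13 of them pseudogenes. The pseudogene Gm10241 on chromosome 16 matched 286 bases at 100%. The other copy lies antisense in a transcript of Samd8 on chromosome 14 (532 aligned bases, 92.7% identity). Every one of the 239 windows of 50 bases in the Sumo2 coding part was found exactly in a transcript of another gene, as were 30.2% of the windows of its whole transcript. For Sumo3 the shares were 60.9% and 11.5%, and its copies were the gene model Gm49325, which overlaps it on the same strand, and the pseudogene Smt3h1-ps. All shared windows of Sumo3 lie in the 346 bases that match Gm49325 at 100%. Those bases are the same place in the genome and not a repeat of it. Smt3h1-ps, on chromosome X, matched 260 bases at 93.5%. The E1 genes, Pias1, Pias3 and Pias4 shared no window, and Pias2 shared 0.498% of its windows. The Sumo2 pseudogenes were not analysed here, and the way in which reads that fit several places were counted was not given in the sources used here. Levels of Sumo2 are uncertain for this reason. For Sumo3 the doubt is smaller, and concerns the overlap with Gm49325 and the likeness to Smt3h1-ps.

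**Figure D1:**
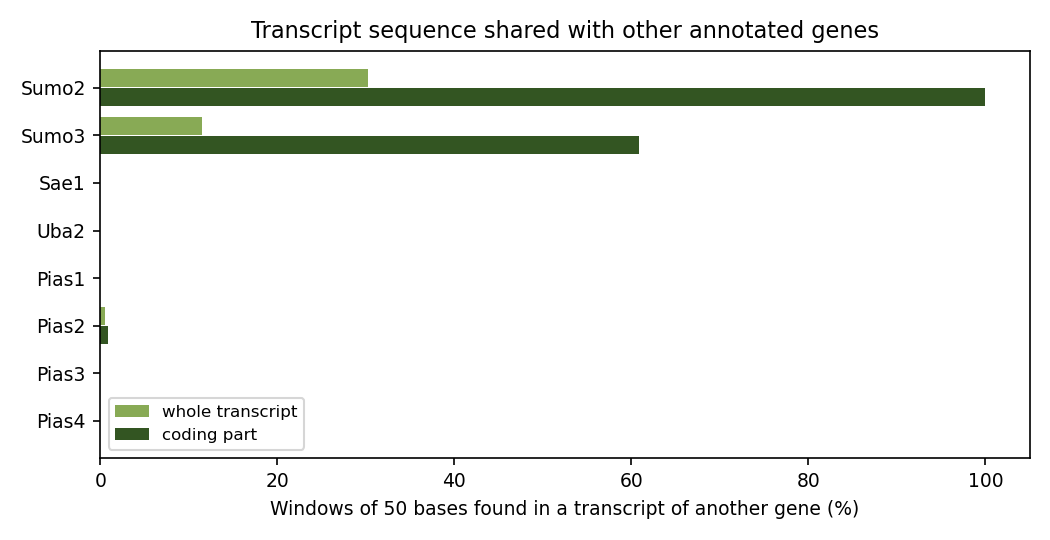
Share of 50-base windows (x axis, percent) of each gene's transcript (light bars) and of its coding part (dark bars) that occur exactly in a transcript of another gene in GENCODE M21. All coding windows of Sumo2 are shared, against 60.9% for Sumo3 and 0% for Sae1, Uba2, Pias1, Pias3 and Pias4. The shared windows of Sumo3 lie in its overlap with the gene model Gm49325 at the same place in the genome.

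RPKM values summed to 359659 and 362836 in control and to 377825 and 390467 in Hnrnpk siRNA libraries. Since RPKM is already scaled to library size, these sums do not measure it. Depth relative to control replicate 1 was estimated at 0.982 in control replicate 2, and at 0.891 and 0.882 in the Hnrnpk siRNA libraries. This is a rough value that rests on 36 to 70 of 2781 low genes. Both the sums and the estimated depth thus differed by group. Hnrnpk itself fell from 231 ± 6.69 to 69.2 ± 1.78 RPKM (SD, n = 2 each), in the direction of the labels. Of 8 embryonic stem cell markers, 2 were called higher and 2 lower, and their summed level was 2893 to 3048 RPKM in control and 3834 to 4184 RPKM in Hnrnpk siRNA libraries. Most of that difference was in 1 gene, Dppa5a, with 1298 ± 31.0 against 2308 ± 203 RPKM (SD, n = 2 each). Markers of primitive endoderm, trophectoderm and two-cell-like cells moved with the treatment. For primitive endoderm, 6 of 8 were called higher (sum 11.8 to 12.0 against 53.1 to 55.1 RPKM). For trophectoderm, 5 of 8 were called higher and 1 lower (69.6 to 72.7 against 96.7 to 102 RPKM). For two-cell-like cells, 5 of 5 matched were called higher (0.463 to 0.472 against 29.7 to 35.0 RPKM). Of all genes tested, 32.2% were called higher and 35.0% lower. Uncalled were Sox17 and Foxa2 (primitive endoderm) and Cdx2 and Elf5 (trophectoderm), which were below the filter and not tested. Their control and Hnrnpk siRNA means were 0.151 and 0.813 (Sox17), 0.0528 and 0.347 (Foxa2), 0.234 and 0.740 (Cdx2) and 0.107 and 0.0656 RPKM (Elf5). Fibroblast markers were low (8.17 to 9.66 against 4.92 to 5.28 RPKM, 5 of 8 under 0.5 RPKM in every library). Among them, 1 was called higher and 2 lower. The gene called higher, Pdgfra (log2 change 1.06), is also counted among the primitive endoderm markers. No marker of any list was at 0 in all libraries. The part of these cell states in the values below was not tested. In RNA from whole cultures, fewer cells of a type and less RNA per cell cannot be told apart.

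After Hnrnpk siRNA, transcripts of the pathway shifted by small amounts and in both directions. Pias4 and Pias2 rose, Sumo3 and Sae1 fell, and Sumo2, Uba2, Pias1 and Pias3 did not pass the test. A gene was called when its limma adjusted p, over the 12486 genes tested, was under 0.05; changes are of log2(RPKM + 0.5). Thus 2 of 8 were called higher and 2 lower, where 32.2% of all genes tested were called higher and 35.0% lower, 67.2% in all. These counts rest on few libraries: 1 was called higher without control replicate 2 or Hnrnpk siRNA replicate 1, and 1 was called lower without control replicate 1 or Hnrnpk siRNA replicate 1. None of the 8 changed by 2-fold, a size that 8.51% of all genes tested reached. Their median log2 change was 0.0044, and the median size of change regardless of sign was 0.18, against -0.015 and 0.32 over all genes tested. The control and Hnrnpk siRNA libraries did not overlap for 5 of the 8, where 84.7% of all genes tested did not.

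**Figure D2:**
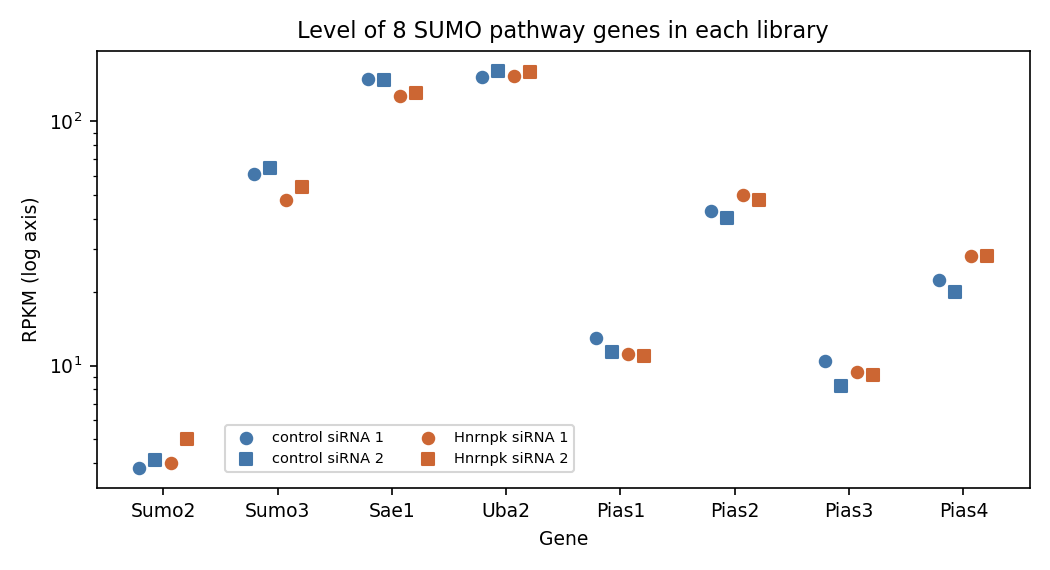
Level of the 8 genes in each library (y axis, RPKM on a log axis; blue, control siRNA; orange, Hnrnpk siRNA; circles and squares, replicates 1 and 2). Uba2 and Sae1 sit highest at 126 to 161 RPKM and Sumo2 lowest at 3.82 to 5.0 RPKM, and the shifts between groups are small beside the differences between genes.

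The order of levels in control libraries was Uba2, Sae1, Sumo3, Pias2, Pias4, Pias1, Pias3 and Sumo2. The lower library of Uba2 (151 RPKM) stood only just above the higher of Sae1 (149 RPKM), whereas from Sae1 to Pias4 each gene stood well clear of the next. Pias1 and Pias3 also did not overlap in the control libraries, with the lowest Pias1 library at 11.3 RPKM and the highest Pias3 library at 10.4 RPKM. The order of the means was the same after Hnrnpk siRNA, but there Sumo3 (47.6 and 53.7 RPKM) and Pias2 (49.9 and 47.5 RPKM) overlapped. Averaged over all libraries, 96.9% of the genes tested lay at or below Uba2 and 96.1% at or below Sae1, while Pias3 lay near the middle at 49.9% and Sumo2 at 32.1%.

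Sumo3, the more highly listed of the SUMO2/3 genes, fell. Its level was 60.7 and 64.6 RPKM under control siRNA, against 47.6 and 53.7 RPKM under Hnrnpk siRNA. Both Hnrnpk siRNA libraries lay below both controls, replicate 1 the further. The group values were 62.7 ± 2.76 and 50.7 ± 4.34 RPKM (SD, n = 2 each), a ratio of 0.808 and a change of -0.31 on the log2 scale (SE 0.0742; adjusted p = 0.00478 by limma). Sumo3 remained called lower in all 13 alternative analyses.

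Sumo2 (minus strand of chromosome 11) was listed at 3.82 and 4.12 RPKM after control siRNA and at 3.99 and 5.0 RPKM after Hnrnpk siRNA. Replicate 1 of the Hnrnpk siRNA group lay between the controls and replicate 2 above them, so the groups overlapped. The log2 change was 0.15 (95% interval -0.083 to 0.39, limma adjusted p = 0.219) and was not called. It was 0.0083 without Hnrnpk siRNA replicate 2. Given the shared coding sequence shown above, this value describes the reads assigned to the Sumo2 row rather than all Sumo2 messenger RNA.

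As listed, Sumo2 made up 5.91% and 6.00% of the summed Sumo2 and Sumo3 RPKM after control siRNA, against 7.74% and 8.52% after Hnrnpk siRNA. The groups did not overlap, and 2 libraries against 2 cannot give an exact permutation p below 0.33 (two-sided), which is the value found.

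The 2 subunits of the E1 enzyme, which work as a heterodimer, had nearly equal levels per length in control cells but did not give the same result. Sae1 (chromosome 7, 16320234 to 16387806, minus strand), which encodes the smaller subunit, was at 149 and 147 RPKM after control siRNA and at 126 and 130 RPKM after Hnrnpk siRNA. The groups were well apart, with 148 ± 0.976 and 128 ± 2.91 RPKM (SD, n = 2 each). Sae1 fell by 0.21 on the log2 scale (SE 0.0615, limma adjusted p = 0.0141). The size depended on the normalization. It was -0.32 under quantile normalization, -0.19 with median-ratio scaling and -0.16 with GC trends removed. The call rested on the number of libraries: the adjusted p was 0.054 without control replicate 1 and 0.0671 without Hnrnpk siRNA replicate 1, at log2 changes of -0.20 and -0.18.

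Uba2 (chromosome 7, 34140688 to 34169599, minus strand), the catalytic subunit, was at 151 and 161 RPKM after control siRNA and at 154 and 160 RPKM after Hnrnpk siRNA. The Hnrnpk siRNA libraries lay inside the range of the controls. Its log2 change was 0.0053 (95% interval -0.14 to 0.15, limma adjusted p = 0.948), so that a change of the size seen for Sae1 lay outside the interval. The direction turned under quantile normalization (-0.11) and with GC trends removed (-0.0089), and also without control replicate 1 (-0.040) or Hnrnpk siRNA replicate 2 (-0.021). The ratio of Uba2 to Sae1 was 1.02 and 1.09 under control siRNA, against 1.22 in both Hnrnpk siRNA libraries. These ratios did not overlap between groups (exact permutation p = 0.33, the smallest that 2 against 2 can give). Being taken within a library, they do not depend on a single scaling factor for that library. Corrections that differ between genes can still move them: with GC trends removed, the log2 changes were -0.16 for Sae1 and -0.0089 for Uba2.

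**Figure D3:**
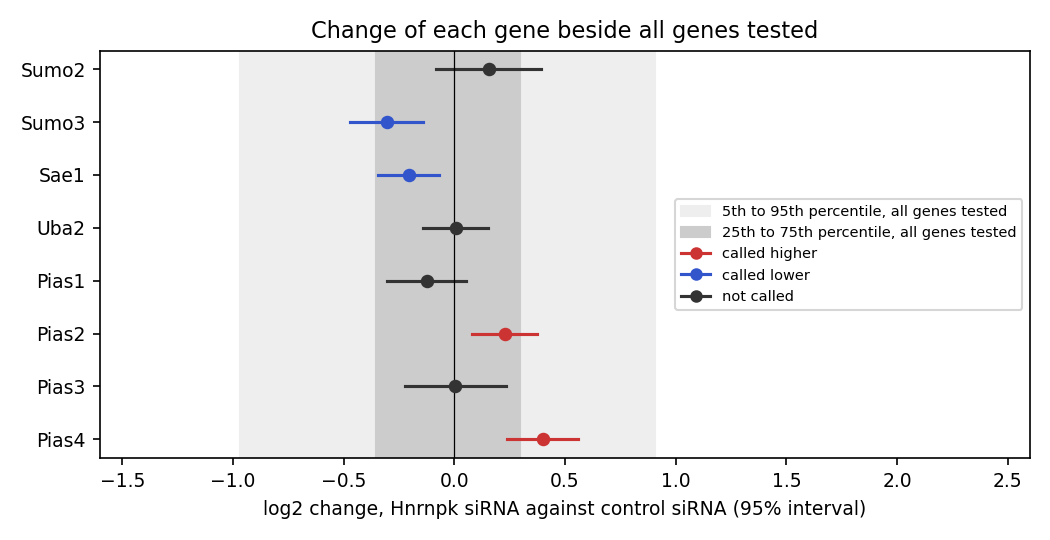
Log2 change of each gene (points) with its 95% interval (lines; red, called higher; blue, called lower; black, not called). Grey bands hold the middle 50% and the middle 90% of the changes of all genes tested, and Pias4, at 0.40, is the only 1 of the 8 whose point lies outside the inner band of -0.35 to 0.30.

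The PIAS genes encode ligases with an SP-RING domain, first described as inhibitors of STAT signalling, which holds the self-renewal of these cells in LIF. Their summed level was 88.7 and 79.8 RPKM under control siRNA, against 98.7 and 95.7 RPKM under Hnrnpk siRNA (exact permutation p = 0.33). The higher sum came with rises of Pias4 and Pias2 and not of the other two.

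Pias4 (chromosome 10, 81153266 to 81167923, minus strand), which encodes PIASy, had the largest change of the 8. It stood at 22.4 and 20.1 RPKM after control siRNA and at 28.2 and 28.1 RPKM after Hnrnpk siRNA. The Hnrnpk siRNA libraries were nearly identical and clear of both controls. The group values were 21.3 ± 1.65 and 28.2 ± 0.0753 RPKM (SD, n = 2 each), a ratio of 1.32 and a change of 0.40 on the log2 scale (SE 0.0711; adjusted p = 0.000789 by limma). Even so, 58.9% of the genes tested changed by as much or less. Pias4 was called higher in all 13 alternatives. With each library's trend on GC content removed the log2 change was 0.62; its transcript has the highest GC content of the 8, at 60.8%.

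Pias2 (chromosome 18, 77065208 to 77153800, plus strand), which encodes PIASx, was the most abundant of the 4 PIAS genes. It was at 42.9 and 40.2 RPKM after control siRNA and at 49.9 and 47.5 RPKM after Hnrnpk siRNA. Both Hnrnpk siRNA libraries lay above both controls, at 48.7 ± 1.72 against 41.5 ± 1.91 RPKM (SD, n = 2 each). Pias2 rose by 0.23 on the log2 scale (SE 0.0653; adjusted p = 0.0113 by limma). The adjusted p was 0.0577 without control replicate 2 (log2 change 0.18) and 0.0762 without Hnrnpk siRNA replicate 1 (0.19).

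Pias1 (chromosome 9, 62878368 to 62987924, minus strand) was at 13.0 and 11.3 RPKM after control siRNA and at 11.2 and 11.0 RPKM after Hnrnpk siRNA. The groups did not overlap, but control replicate 2 lay close to the Hnrnpk siRNA libraries. Its log2 change of -0.12 (95% interval -0.30 to 0.055, limma adjusted p = 0.192) was not called. It was called lower without control replicate 2 (-0.22, adjusted p = 0.0271) and with GC trends removed (-0.20, adjusted p = 0.0469). Its adjusted p ran from 0.0271 to 0.736 over the 13 alternatives.

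Pias3 (chromosome 3, 96696384 to 96706070, plus strand), named for the STAT3 protein it binds, was at 10.4 and 8.24 RPKM after control siRNA and at 9.43 and 9.15 RPKM after Hnrnpk siRNA. The Hnrnpk siRNA libraries lay between the controls, which spread more than those of any other PIAS gene relative to their mean. The log2 change was 0.0036 (95% interval -0.22 to 0.23, limma adjusted p = 0.977). The direction turned with the libraries used: the change was 0.16 without control replicate 1, -0.16 without control replicate 2 and -0.016 without Hnrnpk siRNA replicate 1, none of them called. Its 3′ end overlaps that of Nudt17 on the opposite strand by a few bases, and whether the libraries keep strand was not given in the sources used here.

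Within the PIAS sum, Pias4 made up 25.3% and 25.2% under control siRNA, against 28.6% and 29.4% under Hnrnpk siRNA. Pias1 made up 14.6% and 14.2% in control and 11.3% and 11.5% in Hnrnpk siRNA libraries. The share of Pias2 overlapped between the groups, at 48.3% and 50.3% against 50.6% and 49.6% (exact permutation p = 0.667). The share of Pias3 was 11.7% and 10.3% in control and 9.55% and 9.56% in Hnrnpk siRNA libraries. For Pias1, Pias3 and Pias4 the groups did not overlap (exact permutation p = 0.33 each). The 7 quantities formed from summed or paired levels are descriptions, since none could pass a threshold of 0.05 in this design.

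**Figure D4:**
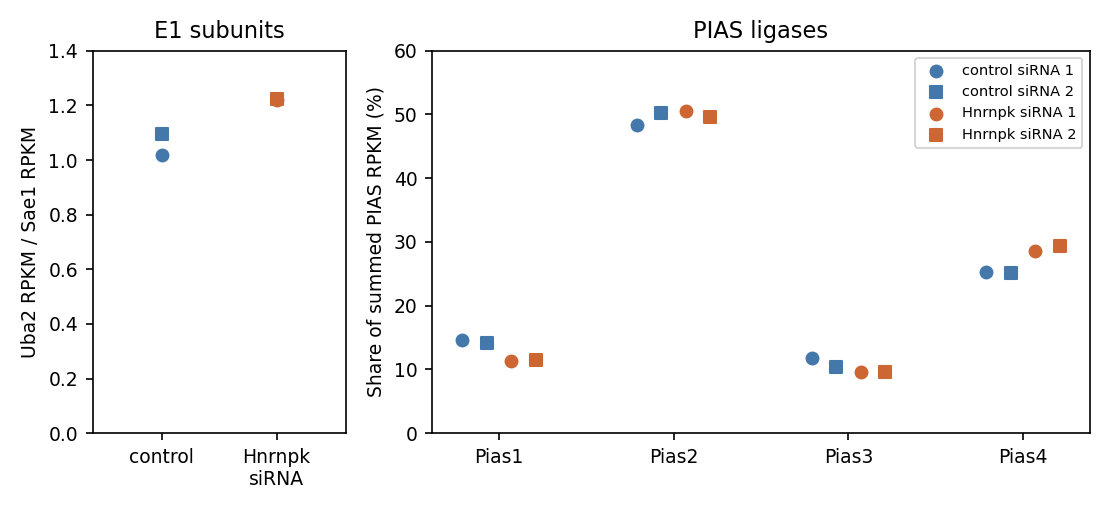
Left, ratio of Uba2 to Sae1 RPKM (y axis) in each library by group; right, share of each PIAS gene in the summed PIAS RPKM (y axis, percent). The E1 ratio is 1.02 and 1.09 in control and 1.22 in both Hnrnpk siRNA libraries, and Pias4 takes a larger and Pias1 a smaller share after Hnrnpk siRNA.

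Beyond these 8 genes, 18 further genes of the pathway were examined, namely SUMO proteases, other ligases and cofactors, and ubiquitin ligases that recognise SUMO chains. Of these 18, 6 were called higher and 5 lower (61.1%, where 67.2% of all genes tested were called), with a median log2 change of 0.078. Without Hnrnpk siRNA replicate 1, 3 were called lower.

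SUMO proteases remove SUMO from its targets or trim its precursors. Of 9 tested, 2 were called higher and 4 lower, with a median log2 change of -0.027. The called share, 66.7%, was close to the 67.2% of all genes tested. Desi1 (listed as Pppde2), of the DeSI family of isopeptidases, was at 25.8 and 23.8 RPKM after control siRNA and at 18.0 and 17.8 RPKM after Hnrnpk siRNA (log2 change -0.46, SE 0.0677). Its relative Desi2 (listed as Pppde1) went from 22.6 and 23.6 RPKM to 17.0 and 16.4 RPKM (log2 change -0.46, SE 0.0653). Both calls held in all 13 alternatives. Senp7, which acts on chains of SUMO2/3, was low, at 1.25 and 1.05 RPKM against 0.827 and 0.793 RPKM (log2 change -0.33, SE 0.10), and was not called without Hnrnpk siRNA replicate 1 (limma adjusted p = 0.0823) or replicate 2 (0.121). Senp3, a nucleolar protease of SUMO2/3, was at 116 and 127 RPKM in control and at 140 and 152 RPKM in Hnrnpk siRNA libraries (log2 change 0.26, SE 0.0723). Its call was lost without control replicate 1 (limma adjusted p = 0.0618) or Hnrnpk siRNA replicate 2 (0.0561), and its change was 0.16 under quantile normalization. Leaving out 1 library left 0 to 2 proteases called higher and 2 to 4 called lower; none was called higher without control replicate 1 or without Hnrnpk siRNA replicate 2.

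Other ligases and cofactors included the gene furthest from 0 among the 18. Of 7 tested, 2 were called higher and 1 lower (42.9%, against 67.2% of all genes tested), with a median log2 change of 0.071. Zmiz1, which encodes a PIAS-like protein, was at 4.55 and 4.88 RPKM after control siRNA and at 10.5 and 9.49 RPKM after Hnrnpk siRNA. Its change of 1.01 on the log2 scale (SE 0.0827; adjusted p = 5.92e-06 by limma) was the only called one of at least 2-fold among the 18. It stayed called in all 13 alternatives but was under 2-fold with an added value of 1 RPKM (0.94), without control replicate 1 (0.96) and without Hnrnpk siRNA replicate 1 (0.94). Its paralog Zmiz2 went the other way, from 126 and 124 RPKM to 103 and 99.5 RPKM (log2 change -0.31, SE 0.0612), and was not called with GC trends removed (-0.13, limma adjusted p = 0.0955). Topors, a ligase for both SUMO and ubiquitin, rose from 35.9 and 39.8 RPKM to 56.3 and 54.0 RPKM (log2 change 0.54, SE 0.0696).

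Of the ubiquitin ligases that recognise SUMO-modified proteins, 2 were tested and both were called higher, with a median log2 change of 0.50, where 32.2% of all genes tested were called higher. Rnf4 was at 128 and 123 RPKM in control and at 160 and 163 RPKM in Hnrnpk siRNA libraries (log2 change 0.36, SE 0.0622). Rnf111 was at 27.0 and 26.8 RPKM in control and at 44.0 and 41.0 RPKM in Hnrnpk siRNA libraries (log2 change 0.65, SE 0.0645). The groups were far apart for both genes, and both calls held in all 13 alternatives.

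Chromatin factors that bind SUMO or are modified by it formed a further list of 12 names, of which 11 were matched and 10 tested (Sp100 was below the filter). Of these, 1 was called higher and 2 lower (30%, against 67.2% of all genes tested), with a median log2 change of -0.096. Trim28 was at 968 and 1053 RPKM in control and at 1038 and 1089 RPKM in Hnrnpk siRNA libraries, overlapping and not called (log2 change 0.074, limma adjusted p = 0.445). With GC trends removed it was called higher (0.26, adjusted p = 0.0222), and under quantile normalization its direction turned (-0.041); its adjusted p ran from 0.0222 to 0.926 over the 13 alternatives. Setdb1 was at 35.2 and 36.1 RPKM against 33.3 and 32.4 RPKM, which did not overlap and was not called (log2 change -0.12, 95% interval -0.26 to 0.020, limma adjusted p = 0.114). Mbd1, a methyl-CpG-binding protein, rose from 5.88 and 6.33 RPKM to 11.2 and 10.9 RPKM (log2 change 0.81, SE 0.0751). Chaf1b, a subunit of the chromatin assembly factor CAF-1, fell from 32.9 and 28.1 RPKM to 18.4 and 18.2 RPKM (log2 change -0.72, SE 0.0802). Pml, the scaffold of SUMO-rich nuclear bodies, fell from 76.9 and 78.7 RPKM to 63.3 and 60.6 RPKM (log2 change -0.33, SE 0.0613).

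Genes that activate and conjugate other ubiquitin-like proteins were set beside the SUMO genes. Of 13 tested (Isg15 and Uba7 were below the filter), 5 were called higher and 2 lower (53.8%, against 67.2% of all genes tested), with a median log2 change of 0.15; 3 were called higher without Hnrnpk siRNA replicate 2, and 1 was called lower without control replicate 1 or without either Hnrnpk siRNA library. Nae1, a subunit of the E1 enzyme for NEDD8, went from 16.1 and 16.6 RPKM to 9.42 and 9.24 RPKM (log2 change -0.78, SE 0.0676, limma adjusted p = 8.39e-06). Ube2m, a conjugating enzyme for NEDD8, rose from 62.3 and 67.1 RPKM to 79.8 and 82.7 RPKM (log2 change 0.33, or 0.61 with GC trends removed). Ufc1, the conjugating enzyme for UFM1, and Urm1, a ubiquitin-like protein that also serves in tRNA modification, had log2 changes of 0.34 and 0.41 and were called. Whether these lists differed from the SUMO genes was not tested.

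**Figure D5:**
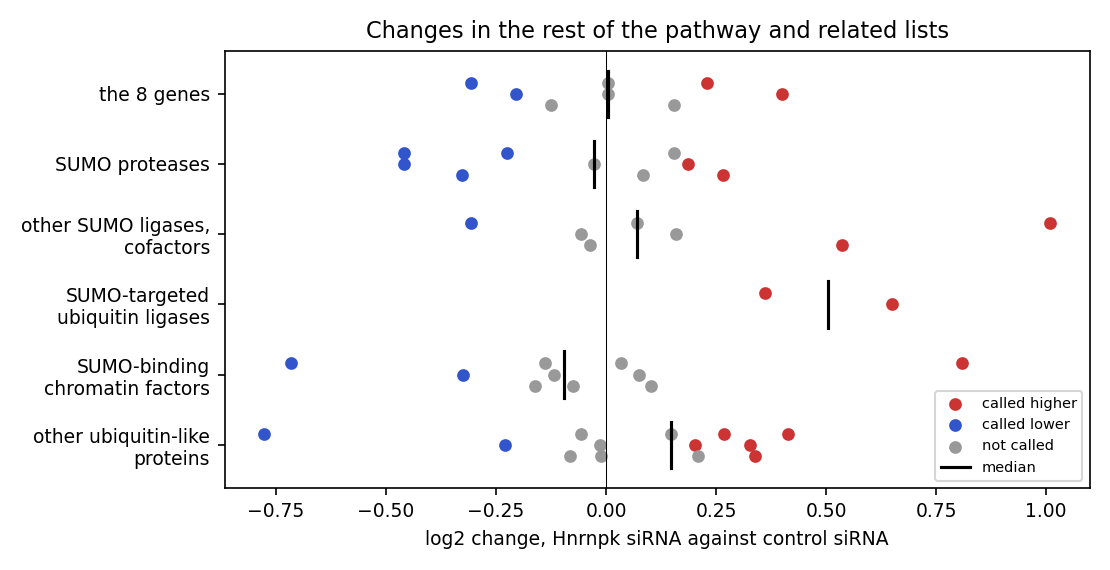
Log2 change (x axis) of every tested gene in the 8 genes described here and in the 5 lists set beside them (rows; red, called higher; blue, called lower; grey, not called; black bar, median). The 8 genes lie between -0.31 and 0.40, while Zmiz1 reaches 1.01 among the other ligases and Nae1 -0.78 among the genes of other ubiquitin-like proteins.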

How the data were processed

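Messenger RNA of 4 libraries was measured as RPKM per gene, which the authors deposited as a single table. BWA, SAMtools and the build mm9 are named in the submitters' processing notes, without roles or versions; the counting tool, the annotation and the treatment of reads with several matches were not given in the sources used here. Per the labels, RNA was both depleted of ribosomal RNA and selected for poly(A). RPKM values are not counts, and absolute depth was not recovered; relative depth came from the commonest ratio of low values between libraries (under 0.2 RPKM).

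Values were analysed as log2(RPKM + 0.5), so changes of low genes are understated. Of 22138 genes, the 12486 whose mean reached 0.5 RPKM were tested with limma 3.58.1 in R 4.3.3, two-sided, with a mean-variance trend (7.47 prior degrees of freedom), adjusted by Benjamini-Hochberg over all genes tested; 8396 were called at 0.05. On simulated data of 12486 genes with 200 changed, limma called 90% of changes of 0.5 and 100% of changes of 1 on the log2 scale, with 8 of 198 calls among unchanged genes. Far more genes, 67.2%, were called in the real data, and none of the 8 genes changed by more than 0.40. The simulation therefore does not give the power or the share of false calls for these results. Whether replicates are separate cultures is stated only as biological replicates, and p-values measure only the spread between these libraries. Positions and transcripts are from GENCODE M21 (GRCm38) by Ensembl identifier, not from mm9; list names were matched by the table's symbol or, failing that, by the symbol there. Copies were sought with BLAST 2.17.0 among annotated transcripts, using the longest protein-coding transcript of each gene, so copies outside the annotation are not counted.

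The 8 genes and all lists were chosen with earlier results of these data known. Named genes are the 8, Hnrnpk, Trim28, Setdb1 and up to 4 called genes per list with the largest change. Some items of the lists are not reported here and enter no list count. Alternatives were an added value of 0.1 or of 1 RPKM, the filter dropped or raised to 1 RPKM, median-ratio scaling, quantile normalization, no mean-variance trend, removal of GC trends, a replicate block, and each library left out.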

Additional observations from a re-analysis of the deposited data

How the results depend on the processing

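The calls of Sumo3, Pias4, Desi1, Desi2, Rnf4, Rnf111, Zmiz1, Topors, Mbd1, Chaf1b, Pml, Nae1, Urm1, Ufc1 and Ube2m held in all 13 alternatives. Sumo3 ranged from -0.39 to -0.22 and Pias4 from 0.32 to 0.62 in log2 change. Added value, filter on low values, median-ratio scaling and the variance trend changed no call among the 8 genes. Removing GC trends called Pias1 lower (-0.20), left Uba2 at -0.0089 and called Trim28 higher (0.26). It also left smaller changes for Sae1 (-0.16) and Pias2 (0.16), both still called. Quantile normalization turned Uba2 (-0.11) and Trim28 (-0.041), neither of them called. With 1 library left out, 1 to 2 of the 8 genes were called higher and 1 to 3 lower, and 3 to 5 of the 18 further pathway genes were called lower. Leaving out 1 library gave log2 changes of -0.23 to -0.18 for Sae1, -0.040 to 0.050 for Uba2, -0.22 to -0.032 for Pias1, 0.18 to 0.27 for Pias2 and -0.16 to 0.16 for Pias3. The cause was not tested. With the replicate number as a block (replicate block), 4162 genes were called higher and 4460 lower, against 4025 and 4371, and 2 of the 8 were called in each direction. Deviations of same-numbered libraries correlated at 0.0267 over 12486 genes. No label says that libraries of the same number share a batch, and a correlation from so few libraries cannot settle it. Absolute depth is unknown, so counting error was not separated from other spread. With 1 library left in a group, it is taken to vary like the other group.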
